A study of Homo sapiens with 6 samples.

Results

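MYC was followed across SH-SY5Y neuroblastoma cells that had been exposed to a compound or to its solvent. MYC was taken as every probe set that the platform annotation names MYC, which was 1 probe set, standing for 1 of 14884 named genes on the array. MYC was selected on its measured log2 differences from mock in these same arrays, so its own values are given as a description and were not tested. The 6 arrays (Affymetrix Human Gene ST, total RNA) fell into 3 groups of 2, namely securinine at 30 µM, 16F16 at 4 µM and mock treatment with methanol, each for 24 h. The series' text calls both compounds inhibitors of protein disulfide isomerase, which helps secreted and membrane proteins fold by forming their disulfide bonds. The compounds were given at different doses, both are set against the same 2 mock arrays, and SH-SY5Y is a single line, so nothing here speaks for other neuroblastoma cells. Arrays sharing a treatment are labelled biological replicates, with no word on how cultures were kept apart, so p-values measure the spread between these arrays.

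MYC encodes a transcription factor that binds DNA as a dimer with MAX, most readily at the E-box CACGTG, and raises genes of ribosome production, nucleotide and polyamine synthesis and the cell cycle. MAX also pairs with repressors of the MXD family and MNT, which occupy the same sites, and the related MLX pairs with MLXIP and MLXIPL, which respond to sugar. MYC protein and mRNA are short-lived, so their levels depend on continued synthesis. Neuroblastomas are known for amplification of the paralog MYCN, and SH-SY5Y belongs to the lines without it, which express MYC instead. MYCN and MYCL were not analysed here.

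As the E-box is the sequence MYC is known to bind, its surroundings are shown for genes known to be raised by MYC and lower with securinine. Only genes were taken in which CACGTG and the 20 bases on either side all lie upstream of the start. The sequences are from RefSeq promoters (GRCh38.p14, 250 bases before to 50 after each start), run 5′ to 3′ along the gene's strand, and have the E-box in capitals.
EXOSC5 (chr19:41397423-41397468, minus strand): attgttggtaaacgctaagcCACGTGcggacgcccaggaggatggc
SRM (chr1:11060192-11060237, minus strand): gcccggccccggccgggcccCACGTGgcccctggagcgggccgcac
IPO4 (chr14:24188820-24188865, minus strand): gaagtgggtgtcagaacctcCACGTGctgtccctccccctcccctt
PPAT (chr4:56435772-56435817, minus strand): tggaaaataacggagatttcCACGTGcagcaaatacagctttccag
APEX1 (chr14:20455101-20455146, plus strand): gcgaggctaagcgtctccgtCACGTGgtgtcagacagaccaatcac
PRDX3 (chr10:119178944-119178989, minus strand): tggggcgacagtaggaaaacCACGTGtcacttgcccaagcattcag
PLK1 (chr16:23678671-23678716, plus strand): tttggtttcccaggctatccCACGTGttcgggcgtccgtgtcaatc
The windows lie in the promoters of an exosome subunit (EXOSC5), spermidine synthase (SRM), a nuclear import receptor (IPO4), the first enzyme of purine synthesis (PPAT), a DNA repair endonuclease (APEX1), a mitochondrial peroxiredoxin (PRDX3) and a mitotic kinase (PLK1). CACGTG reads the same on both strands, so 1 search covers both. APEX1 and EXOSC5 held further matches, which are not shown.

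MYC had log2 values of 6.36 and 6.49 on the securinine arrays, 7.65 and 7.14 on the 16F16 arrays, and 8.95 and 9.14 on the mock arrays. The 3 groups did not overlap, with securinine lowest, 16F16 between and mock highest. The group means were 6.42 ± 0.094 with securinine, 7.39 ± 0.36 with 16F16 and 9.04 ± 0.13 with mock (SD, n = 2 arrays each). MYC was thus 2.62 lower with securinine than with mock on the log2 scale, a 6.15-fold difference, and 1.65 lower with 16F16, a 3.14-fold difference. The 16F16 mean was 0.97 above the securinine mean. Against the mock mean, MYC stood at -1.39 on 16F16 replicate 1 and at -1.91 on replicate 2. The 16F16 group therefore held the widest spread of the 3 groups for MYC.

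MYC stayed above the middle of the array in all groups. It stood at the 76.9 and 78.0 percentiles of all 53617 probe sets on the securinine arrays, at the 86.8 and 83.5 percentiles on the 16F16 arrays, and at the 94.0 and 94.6 percentiles on the mock arrays. Among the 14884 named genes it stood lower, at the 60.58 and 62.15 percentiles on the securinine arrays. The percentiles among genes were 77.08 and 70.44 on the 16F16 arrays, and 91.22 and 92.57 on the mock arrays. Ranked by difference among the 14884 genes, 4 genes fell further than MYC with securinine and 2 with 16F16, which is a description of the values that led to its choice. In bulk RNA, fewer MYC-expressing cells and less MYC RNA per cell cannot be told apart.

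As a check on the cells, 2 of the defining genes of noradrenergic neuroblastoma, HAND2 (11.25 and 11.17 on securinine arrays, 11.25 and 11.19 on 16F16 arrays, 11.30 and 11.21 on mock arrays) and GATA3 (10.91 and 10.93, 11.09 and 11.12, and 11.09 and 11.05 in the same order), were among the brighter genes in every group. These 2 were named after their values were seen and do not stand for the other markers. Of the 12 measured noradrenergic markers, 11 lay below mock with securinine and 10 with 16F16, passed or not. In limma 6 of the 12 fell and 1 rose with securinine (50% and 8.33%, against 10.6% and 8.4% of all genes). With 16F16, 3 fell and 0 rose (25% lower, against 0.779% of all genes). Dopa decarboxylase (DDC) and chromogranin A (CHGA) fell in both. The marker lists were chosen with earlier results of these data known, so the shares describe the listed genes and are no independent test. Shares without markers already known to change were not counted. The count of 6 was 3 without mock replicate 1, mock replicate 2 or securinine replicate 1, and no marker passed with 16F16 when any 1 array was left out. None of 9 measured markers of other cell types passed in limma, against 19% of all genes with securinine and 1.5% with 16F16. At an unadjusted p under 0.05 in limma there were 4 of the 9 with securinine and 1 with 16F16. Of all 14884 genes, 4998 and 3139 were under that threshold. Among the 9 markers the endothelial marker PECAM1 lay near or below the lower quartile of the array, while the matrix gene FN1 was expressed. FN1 had 7.41 and 7.69 on securinine arrays, 8.37 and 8.46 on 16F16 arrays, and 8.03 and 7.93 on mock arrays. Whether the shift in noradrenergic markers had a part in the MYC values was not tested.

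**Figure D1:**
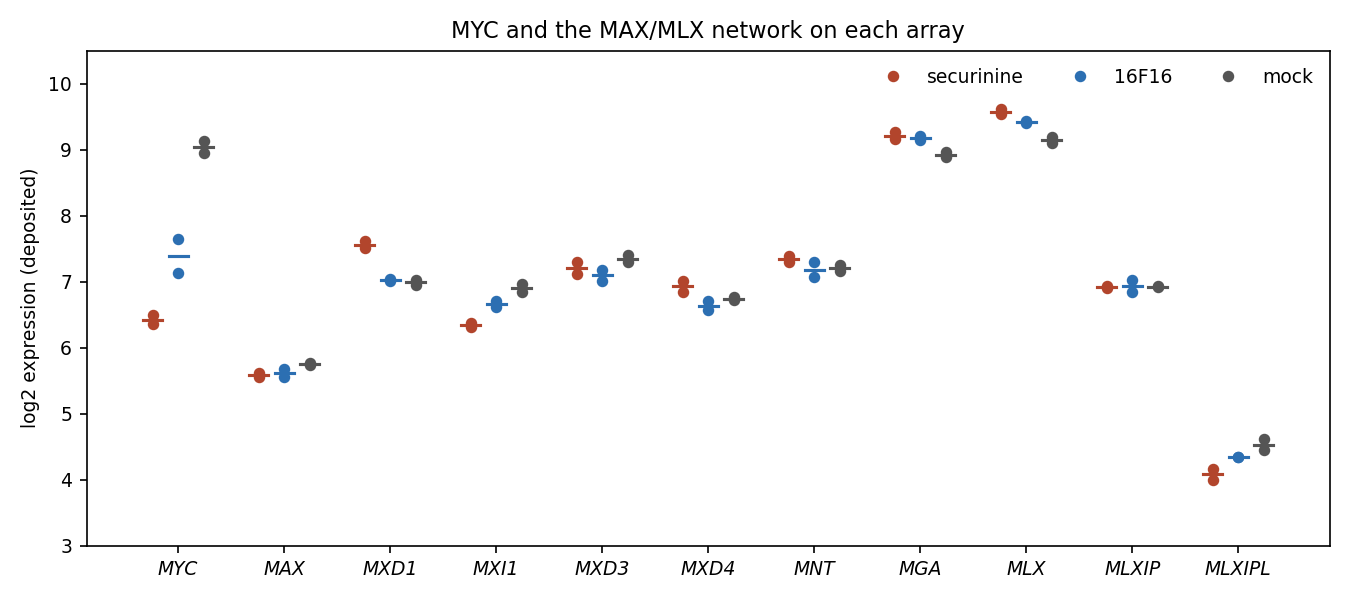
Log2 expression (y axis) of MYC and 10 genes of its dimerisation network (x axis) on each array, with securinine, 16F16 and mock from left to right for each gene; points are arrays and bars are means of 2. MYC averages 6.42 with securinine and 7.39 with 16F16 against 9.04 with mock, and none of the other genes differs by more than 0.57.

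The other members of the dimerisation network differed from mock by -0.56 to 0.57 with securinine and by -0.25 to 0.27 with 16F16. Of 10 measured members other than MYC, 2 rose and 2 fell with securinine, against 8.4% of all 14884 genes higher and 10.6% lower at an adjusted p under 0.05 in limma. With 16F16, 0 of the 10 passed, against 0.719% of all genes higher and 0.779% lower (1.5% in either direction). At an unadjusted p under 0.05 in limma there were 3 of the 10 and 3139 of all 14884 genes. MAX, the obligate partner, had 5.56 and 5.62 on securinine arrays, 5.67 and 5.56 on 16F16 arrays, and 5.73 and 5.76 on mock arrays. Its differences of -0.16 ± 0.083 and -0.13 ± 0.083 (SE) did not pass (adjusted p = 0.248 and 0.419 in limma).

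The MAX-binding repressors went in different directions with securinine. MXD1, a repressor tied to differentiation, had 7.61 and 7.51 on securinine arrays, 7.01 and 7.04 on 16F16 arrays, and 6.95 and 7.03 on mock arrays. Only the securinine arrays stood apart, and MXD1 rose there by 0.57 ± 0.084 (adjusted p = 0.0103 in limma). MXI1, another member of the MXD family, had 6.32 and 6.38 on securinine arrays, 6.61 and 6.71 on 16F16 arrays, and 6.96 and 6.85 on mock arrays. It lay below mock on all 4 treated arrays and fell by 0.56 ± 0.087 with securinine (adjusted p = 0.0123 in limma), while its -0.24 ± 0.087 with 16F16 did not pass (adjusted p = 0.203 in limma). MXD3, MXD4 and MNT differed from mock by -0.25 to 0.19 in either treatment without passing. MGA, a scaffold of a repressive MAX complex, was at 0.29 ± 0.085 with securinine and 0.26 ± 0.085 with 16F16, and neither passed.

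In the MLX branch, MLX rose and MLXIPL fell with securinine. MLX had 9.54 and 9.61 on securinine arrays, 9.43 and 9.41 on 16F16 arrays, and 9.20 and 9.11 on mock arrays, a rise of 0.42 ± 0.081 with securinine (adjusted p = 0.0215 in limma), while 0.27 ± 0.081 with 16F16 did not pass (adjusted p = 0.155 in limma). All treated arrays lay above both mock arrays. MLXIPL, the carbohydrate-response partner of MLX, had 3.99 and 4.17 on securinine arrays, 4.34 and 4.35 on 16F16 arrays, and 4.45 and 4.62 on mock arrays, close to the median probe set, which lay between 4.16 and 4.23 on each array. It fell by 0.45 ± 0.10 with securinine (adjusted p = 0.0340 in limma). MLXIP, which pairs with MLX as well, was at 0.0011 ± 0.092 with securinine and 0.015 ± 0.092 with 16F16. The calls in this network rested on all arrays: without mock replicate 1, mock replicate 2 or securinine replicate 1 none of MXD1, MXI1, MLX and MLXIPL passed (adjusted p between 0.0570 and 0.154 in limma). Without securinine replicate 2, MXD1 alone passed, and without either 16F16 array MLXIPL was lost (adjusted p = 0.0567 in limma).

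Genes that MYC is known to raise were lower with securinine more often than the array as a whole. Over 2 lists of such genes, 68 of 117 genes were measured, of which 29 fell and 2 rose with securinine (42.6% lower, against 10.6% of all genes). Their median difference was -0.33, against -0.035 over all genes. With 16F16, 3 fell and 1 rose (4.41% lower, against 0.779% of all genes), and the median was -0.21, against -0.012 over all genes. The number that fell with securinine was 8 or 7 when mock replicate 1 or 2 was dropped, 9 or 13 when securinine replicate 1 or 2 was dropped, and 25 when either 16F16 array was dropped. Over all genes, the 1572 that fell came to between 376 and 594 when a mock or securinine array was dropped, and to 1396 when a 16F16 array was dropped. Between the treatments, 12 of the 68 were higher and 2 lower with 16F16 than with securinine (17.6% and 2.94%, against 5.55% and 3.96% of all genes), at 4 and 30 µM. Both counts were far smaller when any 1 of the 6 arrays was dropped, as were the counts over all 14884 genes. With adjustment over all probe sets, 0 of the 14884 genes passed between the treatments. Every call between the treatments given here therefore rests on adjustment over the named genes alone. With 16F16 against mock, no member of the lists passed in limma when any 1 of the 6 arrays was left out, and neither did any of the 14884 genes, of which 107 had risen and 116 fallen with all arrays.

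**Figure D2:**
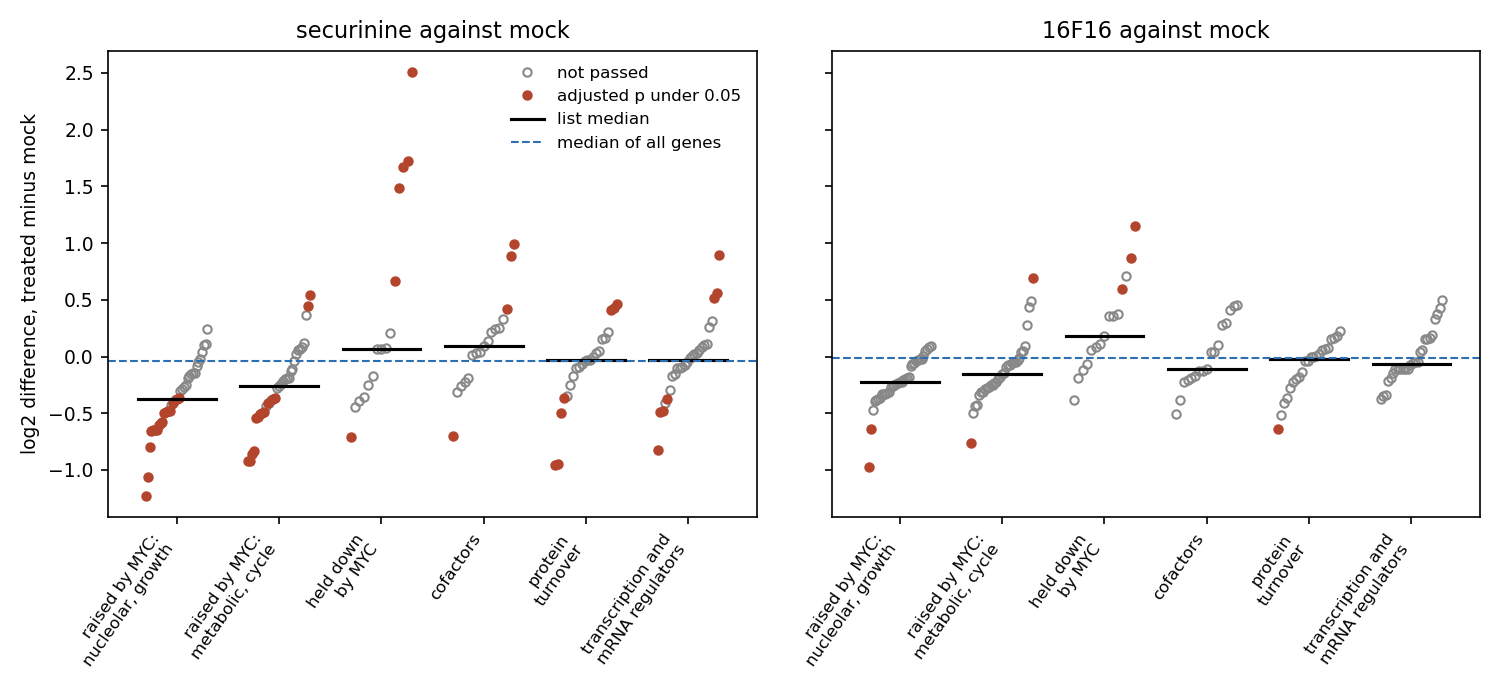
Log2 difference from mock (y axis) of each measured member of 6 gene lists (x axis), with securinine in the left panel and 16F16 in the right; filled points passed an adjusted p under 0.05 in limma, black bars are list medians and the dashed line is the median of all genes. With securinine the lists of genes raised by MYC have medians of -0.37 and -0.26, and the filled points among genes held down by MYC reach 2.51.

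The nucleolar and growth genes of these lists serve ribosome assembly and the supply of polyamines and nucleotides. Of 35 measured, 17 fell and 0 rose with securinine (48.6% lower, against 10.6% of all genes, median -0.37). With 16F16, 2 fell and 0 rose (5.71% lower, against 0.779% of all genes, median -0.22). EXOSC5, a subunit of the RNA exosome, had 8.65 and 8.77 on securinine arrays, 9.67 and 9.56 on 16F16 arrays, and 9.91 and 9.96 on mock arrays. It fell by 1.23 ± 0.089 with securinine (adjusted p = 0.00255 in limma), and its -0.33 ± 0.089 with 16F16 did not pass (adjusted p = 0.128 in limma), and the treatments differed from each other (adjusted p = 0.0104). SRM, which makes spermidine, had 10.74 and 10.81 on securinine arrays, 11.36 and 11.32 on 16F16 arrays, and 11.43 and 11.42 on mock arrays. The securinine arrays stood apart for SRM, with a fall of 0.64 ± 0.077 (adjusted p = 0.00652 in limma) against -0.082 ± 0.077 with 16F16. SRM narrowly missed the threshold when mock replicate 1 (adjusted p = 0.0505 in limma) or mock replicate 2 (adjusted p = 0.0506) was dropped.

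HK2, a hexokinase that commits glucose to glycolysis, fell in both treatments. It had 7.21 and 7.29 on securinine arrays, 7.43 and 7.26 on 16F16 arrays, and 8.32 and 8.31 on mock arrays. The treated arrays overlapped each other and all lay below mock, with falls of 1.06 ± 0.092 with securinine and 0.97 ± 0.092 with 16F16 (adjusted p = 0.00383 and 0.0274 in limma). The other members with the lowest p with securinine were the ribosome assembly factor BYSL (-0.64 ± 0.078), the nucleotide pyrophosphatase DCTPP1 (-0.65 ± 0.082) and the ribosome assembly protein WDR74 (-0.58 ± 0.084), with adjusted p between 0.00666 and 0.0101 in limma. With 16F16 the mitotic kinase PLK1 fell by 0.64 ± 0.084 (adjusted p = 0.0381 in limma). BYSL at -0.47 ± 0.078, NIP7 at -0.37 ± 0.076 and prohibitin PHB1 at -0.38 ± 0.091 did not pass with 16F16. The count of 17 with securinine was 4 or 3 when mock replicate 1 or 2 was dropped, and 4 or 9 when securinine replicate 1 or 2 was dropped.

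Among metabolic and cell cycle genes known to be raised by MYC, 12 of 33 fell and 2 rose with securinine (median -0.26). These were 36.4% and 6.06%, against 10.6% and 8.4% of all genes. ODC1, the first enzyme of polyamine synthesis and a textbook target of MYC, had 10.06 and 10.08 on securinine arrays, 10.70 and 10.51 on 16F16 arrays, and 10.93 and 10.92 on mock arrays. It fell by 0.86 ± 0.092 with securinine (adjusted p = 0.00506 in limma), and 16F16 arrays lay between the other groups without passing (-0.31 ± 0.092, adjusted p = 0.144). PRPS2, which feeds nucleotide synthesis, fell by 0.92 ± 0.094 with securinine, the serine hydroxymethyltransferase SHMT2 by 0.83 ± 0.091 and CDCA7, a gene bound and raised by MYC, by 0.92 ± 0.10. With single arrays left out, ODC1 ran from -0.87 to -0.85 and PRPS2 from -1.02 to -0.83 with securinine. In the same settings SHMT2 ran from -0.84 to -0.83 and CDCA7 from -0.96 to -0.88. Each of these 4 genes differed between the treatments (adjusted p between 0.0181 and 0.0283 in limma). None of them kept that call between the treatments with adjustment over all probe sets. PPAT, the gateway of purine synthesis, fell by 0.50 ± 0.080 with securinine and was at -0.43 ± 0.080 with 16F16 (adjusted p = 0.0131 and 0.0672 in limma).

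Of the 68 measured genes known to be raised by MYC, 39 were not called lower with securinine, and some were higher than with mock. The phosphatase CDC25A, which drives entry into S phase, had 8.52 and 8.46 on securinine arrays, 8.62 and 8.45 on 16F16 arrays, and 8.10 and 7.99 on mock arrays. All 4 treated arrays lay above mock, and CDC25A rose by 0.45 ± 0.096 with securinine (adjusted p = 0.0299 in limma) and was at 0.49 ± 0.096 with 16F16 (adjusted p = 0.0718). Its call with securinine was lost with any of the mock or securinine arrays left out (highest adjusted p = 0.142). FASN, the fatty acid synthase, was the other member that rose with securinine, by 0.54 ± 0.11 (adjusted p = 0.0243 in limma). Of these 2 rises, 0 remained when either mock array or securinine replicate 2 was dropped, and 1 when securinine replicate 1 was dropped. Cyclin CCNE2 had 6.60 and 6.40 on securinine arrays, 7.74 and 7.71 on 16F16 arrays, and 7.02 and 7.03 on mock arrays. It fell by 0.53 ± 0.094 with securinine and rose by 0.70 ± 0.094 with 16F16 (adjusted p = 0.0168 and 0.0398 in limma). The glycolytic enzyme PGAM1 fell with 16F16 by 0.76 ± 0.097 (adjusted p = 0.0365) and was at -0.26 ± 0.097 with securinine (adjusted p = 0.129 in limma), and the treatments differed from each other (adjusted p = 0.0347). LDHA, another glycolytic target, was at -0.22 ± 0.10 with securinine and -0.43 ± 0.10 with 16F16 without passing. The metabolic list's count of 12 was 4 without mock replicate 1, mock replicate 2 or securinine replicate 2, and 5 without securinine replicate 1.

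The E-box was searched in the promoters of these genes. CACGTG occurred in 22 of 54 promoter windows found for the genes raised by MYC (40.7%), against 970 of 10749 windows of all genes tested (9.02%). The share was 53.6% (15 of 28) in the nucleolar and growth list and 26.9% (7 of 26) in the metabolic and cell cycle list. Lists of other kinds had shares like that of the metabolic list, with 30.0% (3 of 10) in the dimerisation network, 29.4% (5 of 17) among genes of MYC protein turnover, 19.0% (4 of 21) among regulators of the MYC gene or mRNA, 18.2% (2 of 11) among genes held down by MYC and 15.4% (2 of 13) among cofactors. Among genes raised by MYC, it was 46.2% (12 of 26) for those that fell with securinine and 35.7% (10 of 28) for the others. No promoter windows of the noradrenergic markers held it (0 of 9), and the window covers only 300 bases at each start. EXOSC5, SRM and PPAT, shown above, held the motif, as did EIF4E, a translation factor at 0.060 ± 0.13 with securinine, and CDK4, a cell cycle kinase at -0.15 ± 0.087. A match is a stretch of letters and no measure of binding.

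Genes that MYC is known to hold down were called in both directions. Of 15 measured, 5 rose and 1 fell with securinine (33.3% and 6.67%, against 8.4% and 10.6% of all genes), and 3 rose and 0 fell with 16F16 (20% higher, against 0.719% of all genes). The medians were 0.070 with securinine and 0.18 with 16F16, against -0.035 and -0.012 over all genes, and the uncalled members with securinine ran from NDRG2 at -0.45 to KLF6 at 0.21. CLU, the secreted chaperone clusterin, had 6.94 and 6.90 on securinine arrays, 5.95 and 6.17 on 16F16 arrays, and 5.22 and 5.17 on mock arrays. The 3 groups did not overlap, and the rises of 1.72 ± 0.10 and 0.87 ± 0.10 (adjusted p = 0.00183 and 0.0333 in limma) ran in the order opposite to MYC. DDIT3, a stress-induced transcription factor, rose by 1.67 ± 0.11 with securinine and was at 0.71 ± 0.11 with 16F16 (adjusted p = 0.00226 and 0.0531 in limma). The survival gene BCL2 rose by 0.67 ± 0.10 with securinine (adjusted p = 0.0113 in limma), and was at 0.36 ± 0.10 with 16F16. NDRG1, named for its repression by MYC family proteins, went the other way and fell by 0.71 ± 0.13 with securinine (adjusted p = 0.0195 in limma). BCL2 no longer passed when any 1 of the mock or securinine arrays was dropped (highest adjusted p = 0.0725 in limma), nor did NDRG1 when either mock array or securinine replicate 1 was dropped (highest adjusted p = 0.102). CLU and DDIT3 passed with securinine in all 6 of these settings.

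The polo-like kinase PLK2 and TP53INP1 made up the other rises, by 2.51 ± 0.14 and 1.49 ± 0.078 with securinine and by 1.15 ± 0.14 and 0.59 ± 0.078 with 16F16 (adjusted p between 0.00179 and 0.0376 in limma). Both are better known as targets of p53, and their rises were known when the list was written. Without them, 3 of 13 genes rose and 1 fell with securinine (23.1% and 7.69%, against 8.4% and 10.6% of all genes). With 16F16, 1 rose (7.69%, against 0.719% of all genes).

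Proteins that stabilise, modify or destroy MYC were measured by their mRNA only. Of 22 measured, 3 rose and 4 fell with securinine (13.6% and 18.2%, against 8.4% and 10.6% of all genes). PLK1 was the 1 that fell with 16F16 (4.55%, against 0.779% of all genes). PIM1, a kinase that phosphorylates and stabilises MYC, had 6.70 and 6.78 on securinine arrays, 7.76 and 7.65 on 16F16 arrays, and 7.62 and 7.78 on mock arrays. Securinine arrays alone were low, with a fall of 0.96 ± 0.095 (adjusted p = 0.00434 in limma), and 16F16 differed from mock by 0.0042 ± 0.095. The 16F16 and securinine arrays differed from each other for PIM1 (adjusted p = 0.0104 in limma). FBXO32, a ubiquitin ligase subunit, fell by 0.95 ± 0.10 with securinine, MAPK3 (the kinase ERK1, which phosphorylates MYC) by 0.49 ± 0.10, and PIM2 and GSK3B, a kinase that marks MYC for destruction, rose by 0.43 ± 0.094 and 0.46 ± 0.093. AURKA, which shields MYC family proteins from degradation, was at 0.22 ± 0.10 with securinine and -0.52 ± 0.10 with 16F16 without passing either test against mock (adjusted p = 0.202 and 0.0718 in limma), while the treatments differed from each other (adjusted p = 0.0190). With any 1 of the mock or securinine arrays left out, 0 of these genes rose and 2 fell with securinine.

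Among 17 measured cofactors of MYC, 3 rose and 1 fell with securinine (23.5% called, against 19% of all genes). With 16F16, 0 passed in limma, against 1.5% of all genes. At an unadjusted p under 0.05 with 16F16 there were 9 of the 17 and 3139 of all 14884 genes. The histone acetyltransferases CREBBP and EP300 rose by 0.99 ± 0.10 and 0.89 ± 0.091 with securinine (adjusted p = 0.00486 and 0.00474 in limma) and kept their calls with each array left out in turn (highest adjusted p = 0.0425). They were at 0.41 ± 0.10 and 0.45 ± 0.091 with 16F16. RUVBL2, an ATPase that binds MYC, had 9.66 and 9.74 on securinine arrays, 9.95 and 9.84 on 16F16 arrays, and 10.44 and 10.36 on mock arrays. All treated arrays lay below mock, as they also did for MAX, which passed in neither treatment. RUVBL2 fell by 0.70 ± 0.087 with securinine (adjusted p = 0.00686 in limma), and its -0.51 ± 0.087 with 16F16 did not pass (adjusted p = 0.0588). That call was lost without mock replicate 1 or securinine replicate 1 (highest adjusted p = 0.0535).

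Factors that act on the MYC gene or its mRNA were called at shares near those of the whole array. Of 26 measured, 3 rose and 4 fell with securinine (11.5% and 15.4%, against 8.4% and 10.6% of all genes). With 16F16, 0 passed in limma, against 1.5% of all genes. At an unadjusted p under 0.05 with 16F16 there were 6 of the 26 and 3139 of all 14884 genes. FUBP1, which binds an element upstream of MYC and promotes its transcription, had 9.57 and 9.56 on securinine arrays, 9.69 and 9.74 on 16F16 arrays, and 10.03 and 10.07 on mock arrays. All treated arrays lay below mock, with a fall of 0.48 ± 0.075 with securinine (adjusted p = 0.0118 in limma) and -0.34 ± 0.075 with 16F16 (adjusted p = 0.0878). SMAD3, a mediator of TGF-beta signals that repress MYC in epithelial cells, fell by 0.82 ± 0.11, and TFDP1, the E2F partner, by 0.48 ± 0.087 with securinine. GATA4, a developmental transcription factor, rose by 0.89 ± 0.090, IGF2BP3, of a family that stabilises MYC mRNA, by 0.56 ± 0.10, and MAZ, which binds the MYC promoter, by 0.52 ± 0.099. E2F1 was at 0.10 ± 0.076 with securinine and 0.43 ± 0.076 with 16F16, and the pocket protein gene RBL1 at 0.26 ± 0.083 and 0.50 ± 0.083, none passing. The 4 falls came to 0 without mock replicate 1 or 2 and to 1 without securinine replicate 1 or 2, and the 3 rises to 1 without mock replicate 1, mock replicate 2 or securinine replicate 1.

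MYC lies on chromosome 8, and the region after it holds PVT1, a long noncoding RNA gene that hosts the microRNA genes MIR1204 to MIR1208. PVT1 itself was not analysed here. The 10 measured genes on each side of MYC, in the order of RefSeq, were compared with mock. Of these 20, 2 rose and 2 fell with securinine, while 0 passed with 16F16 in limma, against 1.5% of all genes. At an unadjusted p under 0.05 with 16F16 there were 4 of the 20 and 3139 of all 14884 genes. The share called with securinine was 20%, close to the 19% of all genes. MIR1204, the nearest measured gene after MYC, had 5.57 and 5.42 on securinine arrays, 4.19 and 4.74 on 16F16 arrays, and 3.34 and 3.50 on mock arrays. The 3 groups did not overlap and stood in the order opposite to MYC. The securinine and 16F16 replicates also ran opposite to MYC, while the mock replicates ran the same way, with replicate 2 the higher. MIR1204 rose by 2.08 ± 0.19 with securinine (adjusted p = 0.00402 in limma), a 4.22-fold difference, and it passed with each of the 6 arrays left out in turn (highest adjusted p = 0.0376). With 16F16 it was at 1.05 ± 0.19 (adjusted p = 0.0659 in limma), and the treatments differed from each other (adjusted p = 0.0333). A probe set of this kind cannot tell the microRNA precursor from RNA of the host gene around it.

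**Figure D3:**
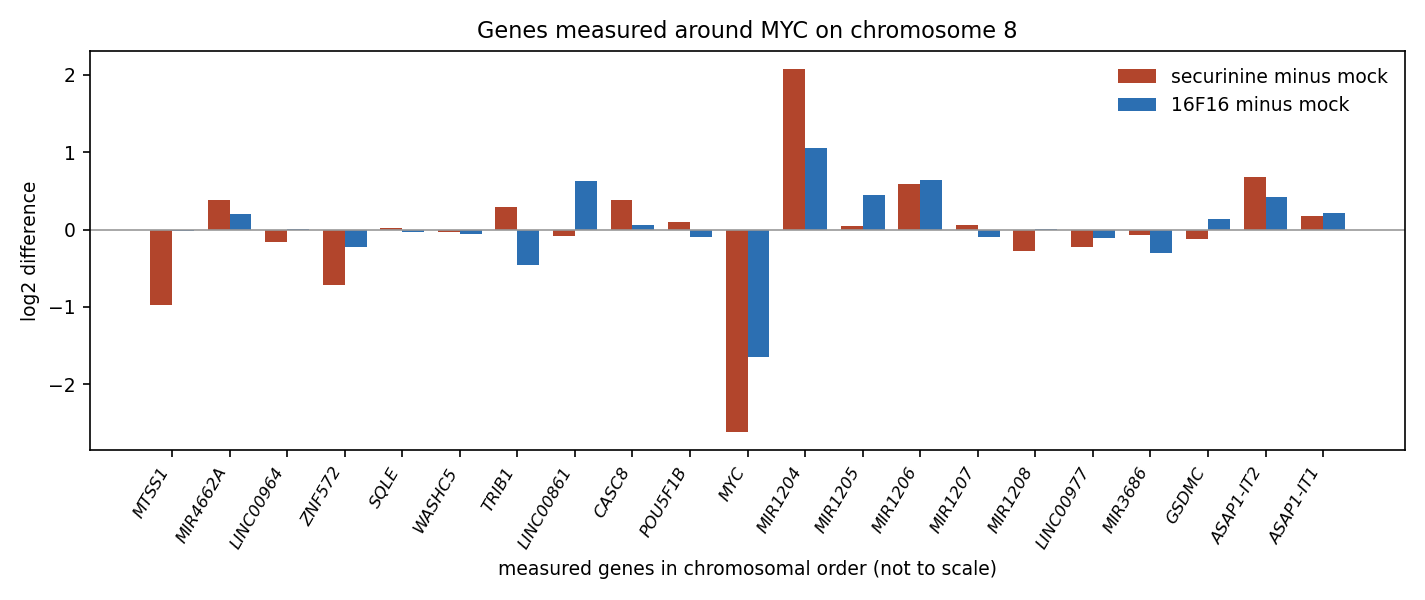
Log2 difference from mock (y axis) of MYC and the 10 measured genes on each side of it (x axis, chromosomal order, not to scale), with securinine and 16F16 as neighbouring bars. MYC (-2.62 and -1.65) and MIR1204 next to it (2.08 and 1.05) stand out in opposite directions.

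The other microRNA genes of PVT1 had smaller differences with securinine. MIR1206 had 1.82 and 2.04 on securinine arrays, 2.15 and 1.79 on 16F16 arrays, and 1.36 and 1.32 on mock arrays, all under the lower quartile of the array, which lay between 2.79 and 2.84. Its rise of 0.59 ± 0.15 with securinine passed (adjusted p = 0.0435 in limma), and it no longer passed when any 1 of the mock or securinine arrays was dropped (highest adjusted p = 0.175). MIR1205, MIR1207 and MIR1208 were at 0.046 ± 0.29, 0.058 ± 0.16 and -0.28 ± 0.17 with securinine. On the other side, the nearest measured genes POU5F1B and CASC8 were at 0.10 ± 0.21 and 0.38 ± 0.10 with securinine without passing. Further out on that side MTSS1, an actin-binding protein gene, fell by 0.98 ± 0.19 and the zinc finger gene ZNF572 by 0.72 ± 0.12 with securinine (adjusted p = 0.0207 and 0.0161 in limma).

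The genes whose values over the 6 arrays ran closest to MYC were found by the root mean square difference of log2 values, each gene centred on its own mean. The nearest 8 were CHGA (0.24), the decarboxylase DDC (0.30), the p38-activating kinase MAP2K6 (0.31), the neuroendocrine factor INSM2 (0.33), the histamine receptor HRH3 (0.34), the receptor tyrosine kinase KIT (0.35), FJX1 (0.35) and the neurexin-family gene CNTNAP5 (0.38). CHGA had 7.18 and 7.35 on securinine arrays, 8.27 and 8.22 on 16F16 arrays, and 9.51 and 9.47 on mock arrays, the same group order as MYC. KIT had 5.92 and 5.23 on the 16F16 arrays and CNTNAP5 had 5.72 and 5.10, with replicate 2 the lower, as for MYC. The measure compares 6 values that share the same 3 groups, so any gene with a large fall in both treatments lies close.

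The nearest mirror images of MYC were PLK2 (0.27), the protease inhibitor TFPI2 (0.29), MIR1204 (0.29), the cadherin FAT1 (0.30), MIR548AL (0.30), MIR3189 (0.30), the lysosomal glycoprotein CD68 (0.31) and the immediate-early factor EGR1 (0.33). MIR1204 is the neighbour of MYC described above. TFPI2 had 10.75 and 10.69 on securinine arrays, 9.74 and 10.03 on 16F16 arrays, and 8.66 and 8.78 on mock arrays. MIR548AL kept closer to a common level in both treatments, with 6.12 and 6.29 on securinine arrays, 5.74 and 6.04 on 16F16 arrays, and 3.89 and 3.95 on mock arrays. Pearson correlation over the 6 arrays, which ignores the size of the change, named 0 of the same genes, and its nearest were FGF7P3, the mitochondrial chaperone TRAP1 and the Notch ligand JAG1 (r = 0.999, 0.998 and 0.998, n = 6 arrays). Its nearest in the opposite direction was the signalling inhibitor SPRY4 (r = -0.999).

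**Figure D4:**
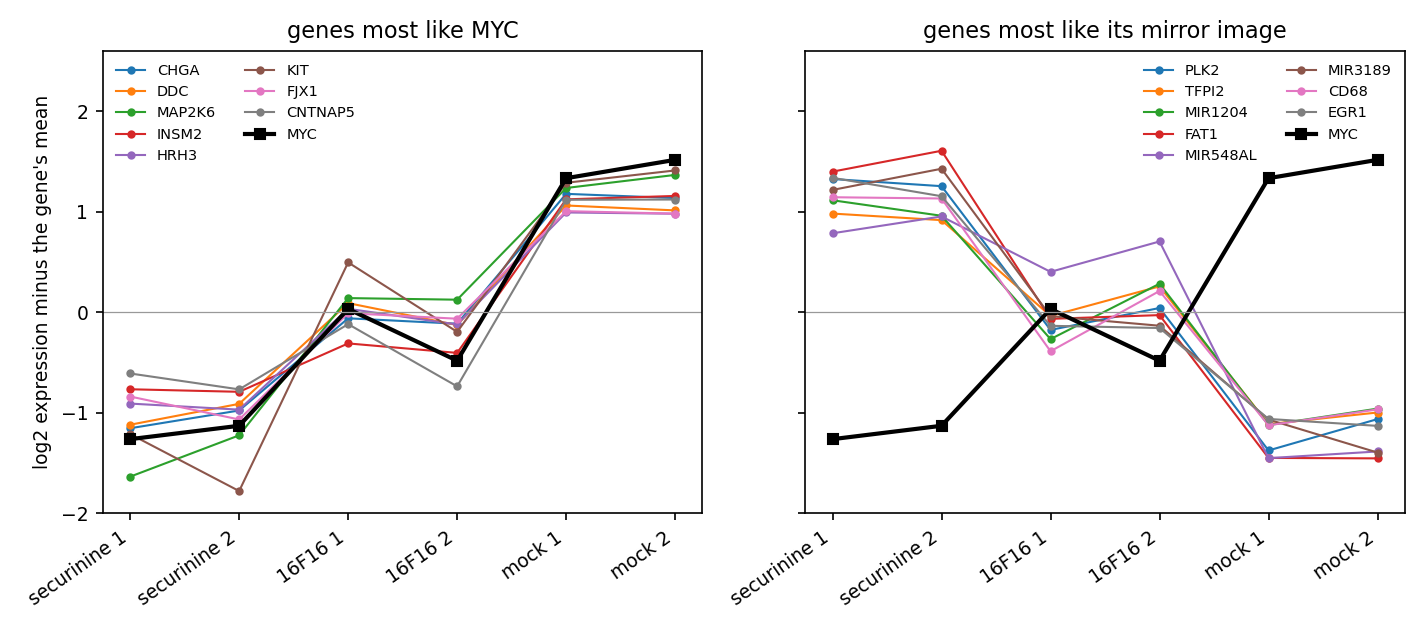
Log2 expression minus each gene's mean (y axis) on the 6 arrays (x axis) for MYC (black squares) with the 8 genes closest to it (left) and the 8 closest to its mirror image (right). On the left the group means are lowest with securinine, then 16F16, and highest with mock, and the coloured lines on the right run the other way.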

How the data were processed

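The values used were log2 expression as deposited by the authors, 1 per array for each of 53617 probe sets. RMA and limma are named, without versions or settings, in the submitters' processing notes; the annotation release and build behind the probe sets were not given in the sources used here. Because RMA puts the arrays on a common distribution, values are relative to the other probe sets. No scanner output entered the work. Arrays correlated at 0.986 to 0.990 within groups and 0.979 to 0.986 between groups, and the number of arrays limits the precision.

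Of the probe sets, 16098 had 1 gene symbol, 0 several and 37519 none; all 16098 matched RefSeq (GRCh38.p14) by Entrez identifier, used for names, chromosome, gene order and promoter sequences. Where a gene had more than 1 probe set (779 genes), the brightest stood for it. limma 3.58.1 (R 4.3.3) fitted the log2 values of 14884 genes with group as the only term (3 residual and 2.68 prior degrees of freedom, median SE 0.11), and Benjamini-Hochberg adjustment ran over all genes, calls at 0.05. The fit was tested on simulated data. MYC is counted among genes tested but not among list members, and got no p-value.

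The members, 8 gene lists and 2 marker lists were chosen with earlier results of these data known. Named genes were the whole dimerisation network, up to 6 members of each other list with the lowest adjusted p per treatment, and the 8 genes most like MYC or its mirror image. FASN, MTSS1, ZNF572, IPO4, APEX1, PRDX3, EIF4E, NDRG2, KLF6, PECAM1, FN1, CDK4, MIR1207, POU5F1B, HAND2, GATA3 and the genes nearest by correlation fell outside that rule and were added after their values were seen. Alternatives were scaling, filter, variance prior, arrays fitted, a replicate block and leaving out each array. MYC had 1 probe set, so other probe sets could not be tried.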

Additional observations from a re-analysis of the deposited data

Results flagged for a closer look

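CCNE2, a cyclin and a known target of MYC, changed in opposite directions with the treatments. It was higher with 16F16 than with securinine by 1.23 on the log2 scale (adjusted p = 0.00876 in limma), and it passed against mock in both treatments, down with securinine and up with 16F16. It was the 1 gene of 167 measured members of the MYC-related lists for which this held. How many of all genes did so was not counted, so CCNE2 cannot be called unusual on this ground. With adjustment over all probe sets, CCNE2 did not pass between the treatments. In that setting it did not pass against mock either (adjusted p = 0.0667 with securinine and 0.16 with 16F16 in limma). The calls against mock were lost for securinine without mock replicate 1 (adjusted p = 0.0867), mock replicate 2 (0.0906) or securinine replicate 2 (0.0737), and for 16F16 without any 1 of the 6 arrays.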

How the results depend on the processing

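The difference of MYC from mock kept its direction under all alternatives run. With single arrays left out it ran from -2.71 to -2.53 for securinine and from -1.91 to -1.39 for 16F16. Over the 167 measured members of the 8 MYC-related lists, 20 were higher and 40 lower with securinine (12% and 24%, against 8.4% and 10.6% of all genes). With 16F16 there were 4 and 3 (2.4% and 1.8%, against 0.719% and 0.779% of all genes). With 16F16 against securinine there were 18 and 16 (10.8% and 9.58%, against 5.55% and 3.96% of all genes). Adjustment over all probe sets left 10 and 16, 0 and 0, and 0 and 0. An intensity trend in the variance prior gave 31 and 61, 22 and 36, and 39 and 31. Testing only genes above the array median gave 14 and 17 with 16F16 and 30 higher with 16F16 than with securinine. Fitting only the 4 arrays compared gave 0 and 0 with 16F16, and 3 and 6 against securinine. Centring and quantile normalization each gave 10 lower with 16F16 than with securinine. Leaving out single arrays gave 8 to 18 higher and 10 to 35 lower with securinine, 0 to 0 with 16F16, and 0 to 4 higher and 0 to 6 lower with 16F16 than with securinine. The replicate block gave 16 and 30 with securinine, 0 and 0 with 16F16, and 8 and 6 against securinine; same-numbered arrays did not deviate together (correlations -0.05, -0.032 and 0.038), so the numbers were not taken to pair the arrays. The cause of these shifts was not tested. Among genes named by the rule above, no difference from mock that passed changed sign. Uncalled ones near 0 did when single arrays were left out, such as MIR1205 with securinine (-0.33 to 0.43), PIM1 with 16F16 (-0.071 to 0.080) and MLXIP with securinine (-0.015 to 0.017). Genes outside that rule and differences between the treatments were not checked for sign. With 2 arrays a group, 3 residual degrees of freedom limit every call.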
